A study of Mus musculus with 12 samples.

Results

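Most olfactory sensory neurons (OSNs) of the mouse main olfactory epithelium (MOE) detect odorants with odorant receptors (ORs) that signal through cAMP. A few sensory cells use other receptors and messengers. Gucy2d, Cnga3, Pde2a, Car2, Gucy1b2 and Trpc2, the 6 genes described here, mark such cells. They were chosen by name and not by their measured values, though earlier results of these data were known. By the rule, a gene was represented by every probe set of the array whose platform annotation gave its symbol alone. This found 5 probe sets of the 35556 on the array, 1 each for 5 of the 6 genes. The only probe set carrying the symbol Trpc2 carried 3 symbols, Xntrpc, Xndc1 and Trpc2. It falls outside the rule, and its values are given below as those of the shared probe set.

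The mutant mice were homozygous for ΔJ, a CRISPR-Cas9 deletion of the J element, an enhancer inside the cluster of class I OR genes on chromosome 7. Total RNA of the whole MOE of 6 ΔJ mice (3 males and 3 females, 5 at P30 and 1 at P33) and of 6 wild-type littermates (2 males and 4 females, 4 at P30 and 2 at P33) was hybridized to 1 Affymetrix Mouse Gene 1.0 ST array per mouse. The ΔJ mice belong to a single line that descends from 1 founder made in B6C3F1 eggs and backcrossed to C57BL/6NCrSlc. The study uses the name ΔJ for homozygotes, and for the array experiment its methods name heterozygotes of the second backcross generation, without saying how the arrayed mice were bred from them. The labels name no treatment. A level is the deposited log2 signal minus the 75th percentile of its array, so a level of 0 is the signal that 75% of the probe sets did not exceed, and a difference of 1 between 2 levels of the same probe set is a doubling. Levels of different probe sets are not comparable with each other.

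Guanylyl cyclase-D neurons carry the receptor guanylyl cyclase encoded by Gucy2d, which is activated by the peptides guanylin and uroguanylin, and their axons reach the necklace glomeruli of the olfactory bulb. In these neurons cGMP opens a channel containing CNGA3 (Cnga3), phosphodiesterase 2A (Pde2a) degrades cGMP, and carbonic anhydrase II (Car2) forms the bicarbonate from carbon dioxide that stimulates the cyclase. A separate class of MOE neurons carries the soluble guanylyl cyclase subunit encoded by Gucy1b2 together with the cation channel TRPC2 (Trpc2), the channel best known from the vomeronasal organ.

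No gene of this group passed the test for a difference between ΔJ and wild-type mice. In the limma fit over all probe sets, 0 of the 5 single-symbol probe sets passed an adjusted p of 0.05, nor did the shared probe set. Over the whole array 48 of 35556 probe sets (0.135%) passed, 46 lower and 2 higher in ΔJ, and none of the 20754 probe sets of a single gene outside the OR family was among them. The adjusted p was 0.993 for each of the 5 probe sets and for the shared one. The point estimates of Car2 and Gucy1b2 were higher in ΔJ, and those of Gucy2d, Cnga3 and Pde2a were lower. In a simulation from the mean and spread of each probe set, changes were planted in random probe sets. Of these, 18% of 1.3-fold, 58% of 1.5-fold and 92% of 2-fold changes were called, so differences under 1.5-fold could often have been missed. The simulated noise was independent between probe sets, and the rates are averages over random probe sets. They are not the rates of these genes, whose SE ran from 0.05 (shared probe set) to 0.20 (Cnga3). In RNA of the whole tissue, fewer cells of a type and less RNA per cell cannot be told apart.

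**Figure D1:**
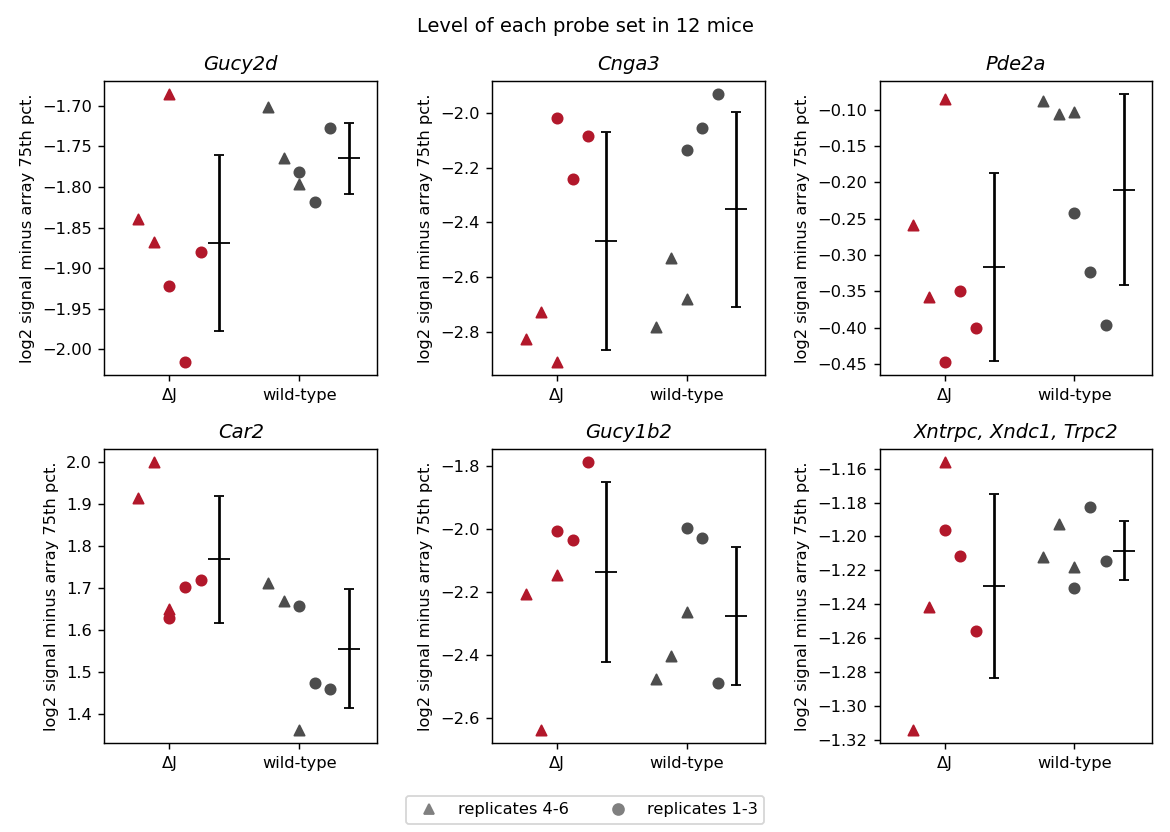
Level (log2 signal minus the array's 75th percentile) of each probe set in each of the 12 mice, with ΔJ left of wild-type. Triangles are replicates 4-6, circles replicates 1-3, and the bars beside the points are the mean and SD of 6 mice. The genotypes overlap in every panel, and the triangles of Cnga3 lie below all its circles.

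Gucy2d (GRCm38 chr7:98440416-98477478, probe set 10555156), the receptor cyclase that defines the necklace system, lay between -2.02 and -1.69 in ΔJ mice (median -1.87) and between -1.82 and -1.70 in wild-type mice (median -1.77). Of the 6 ΔJ mice, 5 lay below all wild-type mice and 1 lay above all of them, so the groups overlapped through a single ΔJ animal, replicate 6. The mean was -1.87 ± 0.11 in ΔJ mice and -1.76 ± 0.04 in wild-type mice (SD, n = 6 each), a difference of -0.10 (SE 0.06, limma adjusted p = 0.993). The ΔJ level was thus 93.1% of the wild-type level, with a 95% confidence interval of 84.9 to 102%. All levels of Gucy2d, Cnga3 and Gucy1b2 lay below the median level of all probe sets (-1.59). How much of such a signal is background was not tested. The percentages given for these genes are therefore of array signal and may not be those of their transcripts. The difference was -0.04 within replicates 4-6 and -0.16 within replicates 1-3. Neither passed after adjustment in limma.

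Cnga3 (chr1:37218241-37263384, probe set 10345571), the channel subunit opened by cGMP in these neurons and in cones, had the widest spread. Its level ran from -2.91 to -2.02 in ΔJ mice (median -2.49) and from -2.78 to -1.93 in wild-type mice (median -2.33). The groups overlapped over most of this range, and within each genotype the mice fell into a lower and an upper trio, which are described below. The mean was -2.47 ± 0.40 in ΔJ mice and -2.35 ± 0.36 in wild-type mice (SD, n = 6 each), a difference of -0.12 (SE 0.20, limma adjusted p = 0.993), or 92.3% of the wild-type level with a 95% confidence interval of 68.4 to 124%. Leaving out 1 mouse moved it between -0.21 (without ΔJ replicate 1) and -0.03 (without ΔJ replicate 6). With the array set as a block the same difference had an SE of 0.06 (limma adjusted p = 0.628).

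Pde2a (chr7:101421691-101512829, probe set 10555510), the phosphodiesterase that cGMP itself stimulates, lay between -0.45 and -0.09 in ΔJ mice (median -0.35) and between -0.40 and -0.09 in wild-type mice (median -0.17). The ranges nearly coincided at the top, and 5 of 6 ΔJ mice lay below the wild-type median. The mean was -0.32 ± 0.13 in ΔJ mice and -0.21 ± 0.13 in wild-type mice (SD, n = 6 each). The difference of -0.11 (SE 0.08, limma adjusted p = 0.993) corresponds to 92.9% of the wild-type level, with a 95% confidence interval of 82.3 to 105%. Endothelial cells also express Pde2a, and the 8 endothelial markers measured had a mean level of -0.92 to -0.81 in ΔJ mice and of -0.92 to -0.79 in wild-type mice.

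Car2 (chr3:14886269-14900770, probe set 10490923) showed the difference with the smallest unadjusted p. Its level ran from 1.63 to 2.00 in ΔJ mice (median 1.71) and from 1.36 to 1.71 in wild-type mice (median 1.56). All 6 ΔJ mice lay above the wild-type median and 3 lay above every wild-type mouse, while the others overlapped with the upper wild-type animals. The mean was 1.77 ± 0.15 in ΔJ mice and 1.56 ± 0.14 in wild-type mice (SD, n = 6 each), a difference of 0.21 (SE 0.09), or 116% of the wild-type level with a 95% confidence interval of 102 to 132%. Its unadjusted p in limma was 0.0302, which did not pass adjustment (adjusted p = 0.993). On the array as a whole 1185 probe sets had an unadjusted p under 0.05. The difference was 0.27 within replicates 4-6, 0.15 within replicates 1-3, 0.10 in males and 0.33 in females.

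Carbonic anhydrase II is abundant outside Gucy2d neurons, in red blood cells and oligodendrocytes among others. The 3 erythrocyte markers measured of 11 listed (Alas2, Slc4a1 and Car1) had a mean level of -1.60 to -0.38 in ΔJ mice and of -1.56 to -0.96 in wild-type mice. Alas2, the erythroid enzyme of haem synthesis, averaged -0.77 ± 0.88 in ΔJ mice and -1.07 ± 0.43 in wild-type mice, while Slc4a1, the anion exchanger of red blood cells, averaged -0.82 ± 0.51 in ΔJ mice and -0.80 ± 0.22 in wild-type mice (SD, n = 6 each). Car1 differed by 0.06. The 8 bulb and glial markers averaged -1.71 to -1.44 in ΔJ mice, against -1.71 to -1.55 in wild-type mice. Their part in the Car2 values was not tested.

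Gucy1b2 (chr14:62372935-62456291, probe set 10420675), the soluble cyclase subunit of the second class of neurons, lay between -2.64 and -1.79 in ΔJ mice (median -2.09) and between -2.49 and -2.00 in wild-type mice (median -2.33). A ΔJ mouse was the highest of the 12 and another ΔJ mouse the lowest, so the ΔJ range enclosed that of the wild-type. The mean was -2.14 ± 0.29 in ΔJ mice and -2.28 ± 0.22 in wild-type mice (SD, n = 6 each). The difference of 0.14 (SE 0.14, limma adjusted p = 0.993) is 110% of the wild-type level, with a 95% confidence interval of 89.5 to 136%. Leaving out 1 mouse moved it between 0.07 (without ΔJ replicate 3) and 0.24 (without ΔJ replicate 5). It was 0.38 (SE 0.11) in males and -0.02 (SE 0.21) in females, and neither value nor the interaction of genotype and sex passed the adjusted threshold.

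The shared probe set of Xntrpc, Xndc1 and Trpc2 (probe set 10555620) had the narrowest spread. Trpc2 spans chr7:102083116-102096864, Xndc1, which encodes a protein with the amino-terminal domain of XRCC1, spans chr7:102065491-102083762, and Xntrpc is the read-through transcript of both. Which of the 3 transcripts gave the signal is unknown. Its level ran from -1.31 to -1.16 in ΔJ mice (median -1.23) and from -1.23 to -1.18 in wild-type mice (median -1.21). Both the highest and the lowest mouse were ΔJ. The means were -1.23 ± 0.05 in ΔJ mice and -1.21 ± 0.02 in wild-type mice (SD, n = 6 each), which gave a difference of -0.02 (SE 0.05, limma adjusted p = 0.993). The level in ΔJ was 98.6% of that in the wild-type, with a 95% confidence interval of 91.6 to 106%.

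Vomeronasal tissue expresses Trpc2 strongly. Over the 15 vomeronasal markers measured (17 listed), the mean of the list was -4.16 to -3.59 in ΔJ mice, against -4.10 to -3.46 in wild-type mice. The vomeronasal receptor genes Vmn2r1 and Vmn2r26 averaged -3.77 and -2.35 in ΔJ mice and -3.76 and -2.39 in wild-type mice. A silent probe set still has a signal, and in the 7 females the Y-linked genes Kdm5d, Uty and Eif2s3y lay at -4.23 to -3.05, -5.09 to -4.07 and -5.30 to -4.73. Probes differ in their own background, so these levels do not show whether vomeronasal RNA was present, and its part in the values of the shared probe set was not tested.

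**Figure D2:**
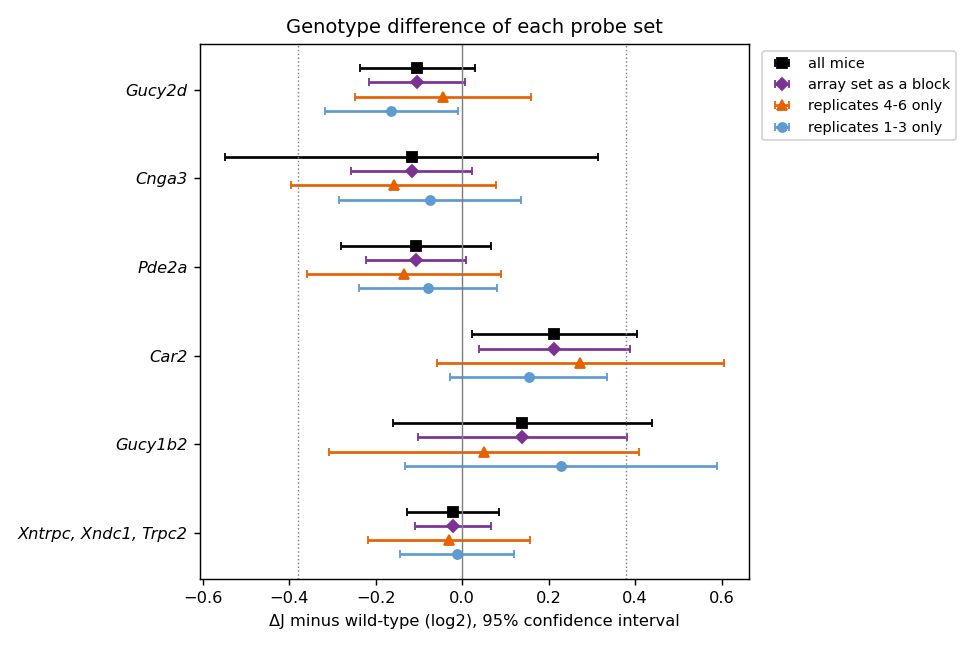
Difference of ΔJ minus wild-type (log2, 95% confidence interval from limma) for each probe set, over all 12 mice, with the array set as a block, and within replicates 4-6 or replicates 1-3 only. Dotted lines mark a 1.3-fold change, and every estimate lies between them.

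Gucy2d, Pde2a and Trpc2 lie on chromosome 7, as does the deleted element. The J element sits between Olfr545 and Olfr547, and the end of each gene is 4.02 Mb (Gucy2d), 0.981 Mb (Pde2a) and 0.397 Mb (Trpc2) before the start of Olfr545. The genes of this stretch were examined in a window chosen after the values were seen. From Gucy2d to Olfr543, 72 probe sets of 70 single genes outside the OR family were measured, those of Gucy2d and Pde2a included. In limma 0 passed, with 1 at an unadjusted p under 0.05, against 1185 of 35556 over the array. Their differences ran from -0.24 to 0.11 with a median of -0.03, equal to the median of -0.03 over all 35556 probe sets. The 1 probe set was that of Art5, an ADP-ribosyltransferase gene that begins just beyond the end of Trpc2. It averaged -2.04 in ΔJ mice and -1.86 in wild-type mice, a difference of -0.17 (SE 0.05, limma adjusted p = 0.993). On the other side of Trpc2, Rnf121 differed by 0.00. Lrrc32 and Acer3, on either side of Gucy2d, differed by -0.16 and 0.04, and Arap1 before Pde2a and Mir139 inside it by -0.00 and -0.01.

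The start regions of the genes on chromosome 7 are printed because they stand for the promoters on the deleted element's chromosome and the genes of the shared probe set have 2 distinct starts. Each runs from 250 bases before to 50 bases after the RefSeq start (GRCm38.p6, plus strand). Capitals mark matches on either strand to an O/E-like motif (3 pyrimidines, CA and 4 purines), the motif of Olf1/EBF factors in olfactory promoters. A homeodomain motif (TAATTA or TAATTG or TAATGA or TAATGG) was searched likewise, and the 2 motifs share no overlap here.
Gucy2d, chr7:98440166-98440465: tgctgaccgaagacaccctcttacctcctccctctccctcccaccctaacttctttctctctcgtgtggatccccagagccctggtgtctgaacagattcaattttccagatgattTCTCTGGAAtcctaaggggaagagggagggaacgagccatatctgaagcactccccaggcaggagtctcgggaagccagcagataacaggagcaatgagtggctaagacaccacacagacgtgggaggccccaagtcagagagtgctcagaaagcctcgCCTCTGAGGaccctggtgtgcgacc
Pde2a, chr7:101421441-101421740: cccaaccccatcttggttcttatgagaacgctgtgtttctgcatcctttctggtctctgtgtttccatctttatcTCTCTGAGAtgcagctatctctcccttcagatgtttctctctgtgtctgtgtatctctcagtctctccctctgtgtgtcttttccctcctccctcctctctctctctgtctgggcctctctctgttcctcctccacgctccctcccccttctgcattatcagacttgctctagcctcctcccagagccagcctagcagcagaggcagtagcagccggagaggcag
Trpc2, chr7:102082866-102083165: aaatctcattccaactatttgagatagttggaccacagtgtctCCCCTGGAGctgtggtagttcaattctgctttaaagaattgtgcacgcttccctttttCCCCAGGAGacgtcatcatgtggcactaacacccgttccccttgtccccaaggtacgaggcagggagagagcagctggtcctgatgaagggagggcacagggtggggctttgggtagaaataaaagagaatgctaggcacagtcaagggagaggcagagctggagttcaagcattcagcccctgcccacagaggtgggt
Xndc1 and Xntrpc, chr7:102065241-102065540: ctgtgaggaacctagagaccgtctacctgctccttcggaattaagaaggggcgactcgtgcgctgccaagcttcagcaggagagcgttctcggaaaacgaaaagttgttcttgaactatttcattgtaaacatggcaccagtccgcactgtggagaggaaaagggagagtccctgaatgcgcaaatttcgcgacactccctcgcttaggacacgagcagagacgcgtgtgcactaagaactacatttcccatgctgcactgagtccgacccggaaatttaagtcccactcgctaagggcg
The O/E-like motif occurred 2 times in the Gucy2d region, 2 times in the Trpc2 region and 1 time at the first of the 5 starts of Pde2a, of which 3 held it, and the region shared by Xndc1 and Xntrpc held neither motif. Of the 32851 promoter regions of this length in the table, 49.2% hold the O/E-like motif and 25.3% the homeodomain motif. The homeodomain motif occurred in none of the regions printed and once at the second start of Cnga3. The Gucy1b2 region held neither. These are matches of letters and not binding sites. A Car2 promoter was not analysed here.

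The arrays themselves fell into 2 sets, replicates 4-6 and replicates 1-3, each with 3 mice of each genotype. The labels name no batch, and the sets were recognised from the array-wide SD of the log2 signals, 2.20 to 2.23 in replicates 4-6 and 2.07 to 2.13 in replicates 1-3. They are not groups of the study. All 3 mice of P33 belong to replicates 4-6. In a limma fit with genotype, sex and array set, 14716 of 35556 probe sets (41.4%) differed between the sets, 3704 higher and 11012 lower in replicates 4-6. Without the percentile shift the split was 8613 higher and 5818 lower, and with quantile normalization it was 5497 higher and 6827 lower. The median difference of all probe sets was -0.09 with the shift and 0.05 without it.

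Cnga3 was the member that differed most between the sets. It lay between -2.91 and -2.53 in replicates 4-6 and between -2.24 and -1.93 in replicates 1-3, without overlap. The difference was -0.66 (SE 0.07, limma adjusted p = 4.42e-05), larger than any genotype difference of the 6 probe sets, and it passed in all alternatives run, with values of -0.70 to -0.51. Pde2a was higher in replicates 4-6 by 0.20 (SE 0.06, limma adjusted p = 0.0153), a call that was lost with age as a covariate (0.13, adjusted p = 0.224) and in P30 mice alone (0.12, adjusted p = 0.315). Gucy1b2 was lower by 0.31 on the log2 scale in replicates 4-6 (difference -0.31, SE 0.11, limma adjusted p = 0.0456), and this call was lost without the shift (-0.18), with quantile normalization (-0.18) and in 8 of the 12 fits that left out 1 mouse. It was kept with age as a covariate (-0.56, adjusted p = 0.0098) and in P30 mice alone (-0.59, adjusted p = 0.0259). Gucy2d, Car2 and the shared probe set differed by 0.09, 0.10 and 0.00, which did not pass. Without the shift these 3 passed as higher in replicates 4-6, at 0.22, 0.23 and 0.14. With 41.4% of the array called, a call between the sets is common for any probe set.

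Sex was not associated with a called difference in these genes. Over the array 5 probe sets (0.0141%) differed between males and females in the same limma fit. Male minus female, the difference was 0.02 for Gucy2d, 0.05 for Cnga3, 0.03 for Pde2a, -0.09 for Car2, -0.10 for Gucy1b2 and 0.05 for the shared probe set, with adjusted p between 0.724 and 0.908. The 95% confidence interval was widest for Gucy1b2, -0.35 to 0.16. No interaction of genotype with sex or with array set passed in limma for any of them. The smallest unadjusted p among these was that of Cnga3, whose genotype difference in males minus that in females was -0.25 (SE 0.11, 95% confidence interval -0.51 to 0.0048, limma adjusted p = 0.496).

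**Figure D3:**
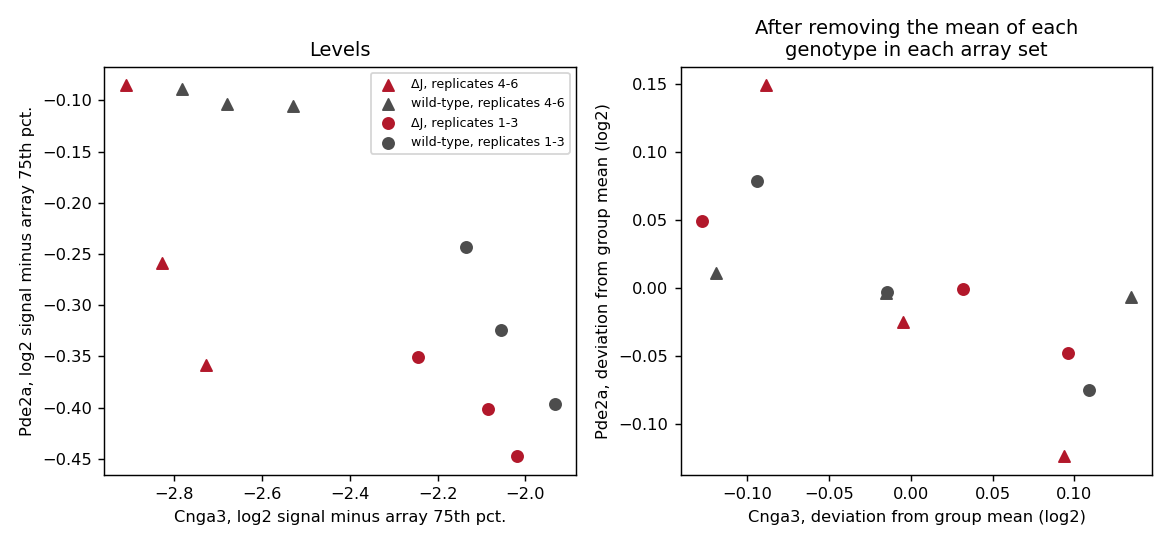
Pde2a against Cnga3 in the 12 mice, as levels (log2 signal minus the array's 75th percentile, left) and as deviations from the mean of the 3 mice of the same genotype and array set (right). Red is ΔJ, grey wild-type, triangles are replicates 4-6 and circles replicates 1-3. Mice with more Cnga3 tended to have less Pde2a than others of their own trio, with r = -0.730.

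Within the trios of the same genotype and array set, Cnga3 and Pde2a tended to deviate in opposite directions. The 15 pairs of the 6 probe sets were compared over 12 mice after the mean of each trio was removed, with 100000 permutations of the mice within trios, two-sided. For Cnga3 and Pde2a, Pearson's r was -0.730 (permutation p = 0.0025, adjusted over the 15 pairs 0.0375) and Spearman's rho was -0.790 (permutation p = 0.00323, adjusted 0.0485). Without the 2 mice farthest from the Cnga3 median, r was -0.712. It was -0.616 within replicates 4-6 (exact permutation p = 0.210) and -0.944 within replicates 1-3 (exact permutation p = 0.0153). These exact permutations ran over all 6 mice of a set, across genotypes that had each been centred, and not within trios. Their p can be too small and cannot be compared with those above. The pair did not pass in replicates 4-6 alone. The other 14 pairs had r between -0.48 (Car2 and the shared probe set) and 0.69 (Gucy1b2 and Pde2a) and none passed. Some of these turned sign between the array sets. For Gucy2d and Pde2a r was 0.90 within replicates 4-6 and -0.57 within replicates 1-3, and for Car2 and Pde2a it was -0.66 within replicates 4-6 and 0.86 within replicates 1-3. For Cnga3 and Pde2a, Pearson's r no longer passed adjustment when any 1 mouse was left out (r from -0.840 to -0.676, adjusted permutation p from 0.060 to 0.12). Spearman's rho still passed without ΔJ replicate 1, 2 or 3 (adjusted permutation p = 0.0465 each) and did not pass without any of the other 9 mice.

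Over all 12 arrays, the genes most like each member were ranked by Pearson's r among 13415 candidate probe sets. The mean of each trio of the same genotype and array set was removed first. Mean differences between the array sets therefore do not enter these r, which carry no test. Removing the trio means leaves fewer than 12 independent values. The highest of 13415 candidates can then reach a high r without any biological link. How many unrelated probe sets would exceed 0.9 was not estimated. Gucy2d was most like Celsr3 (r = 0.936), a cadherin of axon guidance, and Abcc4 (0.929), an exporter of organic anions and cyclic nucleotides. For Cnga3 these were Glis1 (0.959) and Mroh5 (0.932), and 12 probe sets exceeded 0.9. Pde2a was most like Ints2 (0.967), a subunit of the Integrator complex, and 41 probe sets exceeded 0.9. Car2 was most like Nudt21 (0.971), a subunit of pre-mRNA cleavage factor I, Cpe (0.970), carboxypeptidase E of secretory granules, and Chgb (0.947), chromogranin B. Gucy1b2 was most like Elapor1 (0.954) and Gnptab (0.937), and the shared probe set most like Pms2 (0.933), a mismatch repair gene.

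The related genes of the same pathways were described by 15 lists with 142 single-symbol probe sets in all. In limma 0 passed and 0 had an unadjusted p under 0.05. Over the array 0.135% was called, and 1185 of 35556 probe sets had an unadjusted p under 0.05. The median difference of the 142 was -0.03, as over all probe sets. Directions of such small estimates depended on the scaling, and 94 of the 142 were below 0 with the percentile shift, 87 without it and 73 with quantile normalization. Of receptor guanylyl cyclases and their ligands, 11 of 11 genes were measured, with estimates between -0.24 and -0.03. Gucy2c, the intestinal receptor of guanylin, averaged -0.91 ± 0.34 in ΔJ mice and -0.67 ± 0.44 in wild-type mice (SD, n = 6 each), and Gucy2e, a retinal cyclase, averaged -2.38 ± 0.24 in ΔJ mice and -2.30 ± 0.25 in wild-type mice. Of the soluble cyclase subunits other than Gucy1b2, 3 were measured. Gucy1b1, the beta subunit of the nitric oxide receptor, averaged -2.58 ± 0.13 in ΔJ mice and -2.68 ± 0.14 in wild-type mice (SD, n = 6 each).

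The Ms4a genes encode the chemoreceptors proposed for necklace neurons. Of 18 listed, 16 were measured, 6 with estimates above and 10 below 0, between -0.14 and 0.18. The 2 with the smallest unadjusted p in limma went opposite ways. Ms4a4d averaged -4.21 ± 0.08 in ΔJ mice and -4.08 ± 0.18 in wild-type mice (SD, n = 6 each). Ms4a6d, the highest estimate of the list, averaged -2.29 ± 0.29 in ΔJ mice and -2.48 ± 0.15 in wild-type mice. Among the 8 probe sets of 5 other channel subunit genes, Cnga2, the subunit of canonical OSNs, averaged 3.44 ± 0.06 in ΔJ mice and 3.38 ± 0.06 in wild-type mice (SD, n = 6 each). Cngb1, which pairs with it, had 4 probe sets, whose differences were -0.05, -0.10, -0.10 and -0.24, and none passed. The 17 probe sets of other phosphodiesterases and cGMP kinases had a median difference of -0.02, the 15 other carbonic anhydrases one of -0.11, and the 6 other TRP channels one of -0.04. Car12, which hydrates carbon dioxide at the cell surface, averaged -0.26 ± 0.23 in ΔJ mice and -0.05 ± 0.23 in wild-type mice (SD, n = 6 each).

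Markers of the other cells of the tissue also lacked called differences. The 19 probe sets of canonical olfactory transduction genes had a mean level of 2.13 to 2.35 in ΔJ mice and of 2.29 to 2.36 in wild-type mice, and 12 of the 19 estimates were below 0. Omp, the marker of mature OSNs, averaged 3.98 ± 0.02 in ΔJ mice and 3.95 ± 0.07 in wild-type mice, and Gnal, the G protein subunit of OSNs, averaged 3.93 ± 0.29 in ΔJ mice and 4.08 ± 0.14 in wild-type mice (SD, n = 6 each). The 8 genes of microvillar and ionocyte-like cells had estimates between -0.12 and -0.02. The 10 leukocyte markers had a median of 0.06 and the 8 bulb and glial markers one of 0.05.

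**Figure D4:**
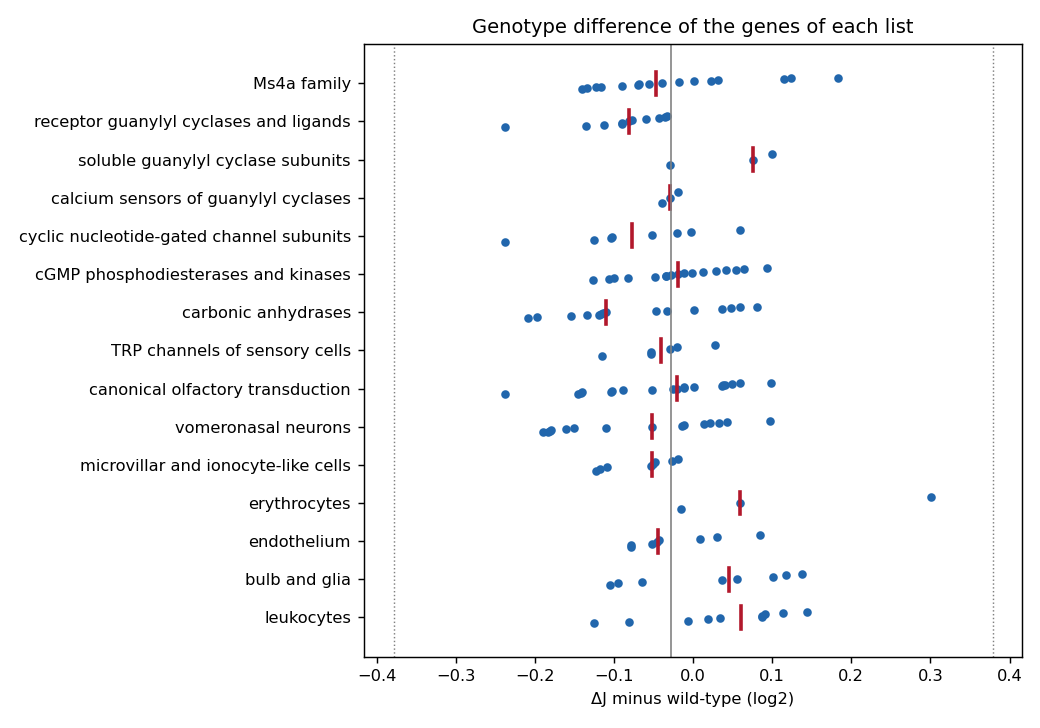
Difference of ΔJ minus wild-type (log2) of each probe set of the 15 gene lists. Each point is 1 probe set, the red bar is the list's median, the grey line the median of all 35556 probe sets (-0.03), and dotted lines mark a 1.3-fold change. No point lies beyond the dotted lines and none passed the test.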

How the data were processed

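The MOE of each of 12 mice gave the total RNA for 1 Affymetrix array. The deposited values are log2 signals, 1 for each of 35556 probe sets. Affymetrix Expression Console is named in the submitters' processing notes, while its version and settings were not stated in the text consulted. The methods of the study name GeneSpring GX 14 and a shift to the 75th percentile, which was computed here by subtracting that percentile of each array. Gene symbols came from the array's platform annotation (21789 with 1 symbol, 1621 with several, 12146 with none), and coordinates are those of RefSeq on GRCm38.p6. The members and gene lists were chosen with earlier results of these data known. From each list the text draws on the first 2 measured genes and the 2 with the smallest p.

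Genotype was fitted alone, and sex and array set in a fit with all 3, with limma 3.58.1 in R 4.3.3 over all probe sets, with Benjamini-Hochberg adjustment at 0.05. The script was tested on simulated data. Nothing in the labels says that mice of a number share a litter. Same-numbered mice of the 2 genotypes deviated together from their genotype means over all probe sets (correlations 0.365, 0.294, 0.419, 0.441, 0.185 and 0.385). Same-numbered mice always share an array set, and the set means were not removed. These correlations therefore cannot show whether mice are paired by number. The replicate block was run as an alternative. Others were no shift, quantile normalization, filters, covariates, subsets and leaving out each mouse. With 6 mice a group the number of arrays limits the precision. No 2 arrays held identical values.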

Additional observations from a re-analysis of the deposited data

How the results depend on the processing

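No genotype call for these genes changed under any alternative in which they were tested. Gucy2d, Cnga3 and Gucy1b2 lay below the median level of all probe sets (-1.59) and were not in the fit above it. With the replicate block, which pairs the mice by number, the estimates were as before and the lowest adjusted p among the genes was 0.618 (Car2, 0.21), so the block changed no call. Estimates that changed sign stayed below the threshold: for genotype, Gucy1b2 in females (-0.020) and the shared probe set with quantile normalization (0.0021) and in males (0.015). For sex they were Car2 with age as covariate (0.014), Gucy2d with quantile normalization (-0.016) and in P30 mice (-0.0088), and Pde2a with age (-0.018) and in P30 mice (-0.038). Leaving out 1 mouse gave genotype differences of 0.17 to 0.25 (Car2), -0.14 to -0.07 (Gucy2d), -0.15 to -0.08 (Pde2a), -0.21 to -0.03 (Cnga3), 0.07 to 0.24 (Gucy1b2) and -0.036 to -0.0039 (shared probe set), none called, and sex differences of -0.0056 to 0.10 (Cnga3), -0.18 to 0.0076 (Gucy1b2), -0.021 to 0.051 (Gucy2d) and -0.0098 to 0.066 (Pde2a).

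Between the array sets, Gucy1b2 lost its call without the shift (-0.18), with quantile normalization (-0.18) and in 8 of 12 fits without 1 mouse (-0.38 to -0.23 over all 12), those without ΔJ replicates 1, 2, 3 or 4 or wild-type replicates 1, 2, 4 or 5 (adjusted p 0.061 to 0.12), and Pde2a lost its call with age (0.13) and in P30 mice (0.12). Calls were gained without the shift by Car2 (0.23), Gucy2d (0.22, and 0.19 with quantile normalization) and the shared probe set (0.14), whose estimate was -0.022 with age, -0.021 in P30 mice and -0.015 to 0.013 without 1 mouse. Pearson's r of Cnga3 and Pde2a no longer passed without centring (-0.729, adjusted permutation p = 0.153), with quantile normalization (-0.703, adjusted permutation p = 0.0511), within replicates 4-6 (-0.616) or without any 1 mouse (-0.840 to -0.676), where a trio became a pair with fewer distinct permutations. Spearman's rho passed without ΔJ replicates 1, 2 or 3 (adjusted permutation p = 0.0465) and was lost without the shift (adjusted permutation p = 0.0505), where r passed (adjusted permutation p = 0.0245). The causes were not tested.

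Over the array 48 genotype calls became 19 among probe sets above the median level, 0 among single non-OR genes, 73 with sex and array set, 28 in P30 mice, 19 in replicates 4-6, 15 in replicates 1-3, 0 in males and 15 in females. The 14716 calls between array sets became 8828 with age and 6300 in P30 mice.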
